A study of Rattus norvegicus with 862 samples.

Results

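Oxybutynin and dicyclomine are antimuscarinic drugs given for overactive bladder and for irritable bowel, respectively. Both are tertiary amine esters that carry a diethylamino group and block muscarinic acetylcholine receptors. Oxybutynin is the ester of phenylcyclohexylglycolic acid with a diethylamino butynyl alcohol, and dicyclomine is the ester of a bicyclohexyl carboxylic acid with diethylaminoethanol. The arrays described here were those whose labels name Oxybutynin at 230 mg/kg or Dicyclomine at 645 mg/kg, 13 of the 862 rat heart arrays in all. Each array held the heart RNA of 1 male Sprague-Dawley rat (CD-IGS stock, aged 6 to 8 weeks) hybridised to an Affymetrix RG230_2.0 array, as part of a survey of drug responses in rat tissues. Oxybutynin had 3 rats at 3 d and 3 at 5 d of dosing, and Dicyclomine had 3 rats at 1 d, 2 at 3 d and 2 at 5 d. All received the drug in water by oral gavage. The controls received water alone (dose 0) by the same route and were matched on duration and on the RNA extraction campaign, which gave 9 rats at 1 d, 8 at 3 d and 9 at 5 d.

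In the heart, acetylcholine from the vagus nerve acts mainly on the receptor encoded by Chrm2, which couples to inhibitory G proteins, lowers cyclic AMP and opens the potassium channel built from Kcnj3 and Kcnj5, and so slows the beat. An antagonist at this receptor leaves the sympathetic drive to the heart less opposed. Heart tissue also keeps its own circadian clock, in which Bmal1 and Clock activate Per, Cry and Nr1d genes that in turn repress them, and the young rat heart still holds dividing cells, many of them not muscle.

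The design set limits on every comparison below. All Oxybutynin rats belonged to 1 study with 0 control rats of its own among the matched controls, so study and compound cannot be told apart. Dicyclomine had 0 control rats of its own study at 1 d, 1 at 3 d and 3 at 5 d. The 17 control rats at 3 d and 5 d served both compounds, and the doses differed, so values of the compounds are given side by side and no difference between them was tested. Per the labels, the 1 d rats were killed after midday, and the 3 d and 5 d rats over some hours of the morning. The 1 d rats were of RNA extraction campaign 1, and the 3 d and 5 d rats of campaign 3. In whole hearts, fewer cells of a type and less RNA per cell cannot be told apart.

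Heart muscle markers were high in all but 2 rats. The mean log2 level of the heart muscle list (18 genes such as the cardiac myosins and troponins) was 12.93 to 13.36 in all but 2 of the treated and control rats. The exceptions were 1 Dicyclomine rat at 3 d, at 11.76, and 1 control rat at 5 d, at 11.90. The arrays of the same 2 rats correlated at 0.8992 and 0.9235 with the mean array, under the bound of 0.95, and are called the low-correlation arrays. Results that rest on them are given with and without them. The mean of the atrial muscle list (5 genes), which tells how much atrium a sample held, ran from 7.36 to 13.95 across control rats, and in treated rats it was highest in 1 Dicyclomine rat at 5 d (13.72) and 1 Oxybutynin rat at 3 d (13.64).

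Few genes passed the test. A gene was called where limma gave an adjusted p of 0.01 or less and a change of 1.5-fold or more over 14217 genes. With Oxybutynin over both durations (6 treated and 17 control rats), 5 genes were called, 0.0352% of those tested, all 5 higher (0.0352%) and 0 lower (0%). With Dicyclomine over its 3 durations (7 treated and 26 control rats), 23 genes were called (0.162%), of which 5 were higher (0.0352%) and 18 lower (0.127%). Without the low-correlation arrays the counts were 6 higher and 1 lower with Oxybutynin and 18 higher and 16 lower with Dicyclomine. Values of single rats are given below as description. Genes that pass the test tend to separate treated from control rats, so a lack of overlap in called genes adds no support. The share of all genes without overlap was not counted, so a lack of overlap in genes not called cannot be weighed either.

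By single durations, Oxybutynin gave 0 calls at 3 d (0%) and 3 at 5 d (0.0211%). Dicyclomine gave 0 calls at 1 d (0%), 0 at 3 d (0%) and 9 at 5 d (0.0633%). At an unadjusted limma p under 0.05, 711 genes were expected to pass if no gene differed. Over all durations 1545 passed with Oxybutynin and 1495 with Dicyclomine. By duration, 617 passed for Oxybutynin at 3 d and 678 at 5 d. For Dicyclomine 580 passed at 1 d, 5355 at 3 d and 891 at 5 d. Without the low-correlation arrays 1511 passed for Oxybutynin at 3 d and 1184 for Dicyclomine at 1 d. These 2 comparisons held no such array. Their counts moved because the fit estimates 1 spread for all durations of a compound. At 5 d 782 then passed for Oxybutynin and 1793 for Dicyclomine. The 5355 rested on the low-correlation array, 1 of the 2 Dicyclomine rats at 3 d, and without it 192 genes passed. At an adjusted p of 0.05 with no fold minimum, Oxybutynin over both durations had 6 genes higher (0.0422%) and 6 lower (0.0422%), and Dicyclomine over its durations had 24 higher (0.169%) and 57 lower (0.401%).

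The receptor targets of both drugs did not pass the test. Calls were rare over all genes tested (0.0352% with Oxybutynin and 0.162% with Dicyclomine), so 0 calls do not set a short list apart. Of 23 measured genes for muscarinic receptors and the proteins they couple to, 0 were called with either compound. The median log2 change of the 23 genes was 0.03 with Oxybutynin (0.05 over all genes tested) and -0.03 with Dicyclomine (-0.03 over all genes tested). Without the low-correlation control the Oxybutynin median was 0.06 (0.03 over all genes tested). Chrm2, the main cardiac muscarinic receptor, changed by -0.23 (SE 0.18, limma adjusted p = 0.525) with Oxybutynin and by 0.02 (SE 0.16, limma adjusted p = 0.965) with Dicyclomine.

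In single rats the log2 level of Chrm2 was 6.34, 6.18 and 6.18 with Oxybutynin at 3 d and 6.78, 6.70 and 6.08 at 5 d. With Dicyclomine it was 6.63, 6.18 and 6.56 at 1 d, 7.67 (low-correlation array) and 6.09 at 3 d, and 6.38 and 6.44 at 5 d. Control rats spanned 6.21 to 6.68 at 1 d (median 6.42), 5.97 to 7.07 at 3 d (median 6.59) and 6.29 to 7.85 at 5 d (median 6.46). Apart from the low-correlation array, treated rats lay within or close to the span of their controls. The Chrm2 change given above for Dicyclomine includes the rat at 7.67.

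Of the genes downstream of the receptor, the channel subunit Kcnj3 changed by 0.06 (SE 0.21) with Oxybutynin and 0.26 (SE 0.15) with Dicyclomine, and its partner Kcnj5 by 0.48 (SE 0.21) and 0.20 (SE 0.21). Their limma adjusted p ranged from 0.459 for Kcnj5 with Oxybutynin to 0.866 for Kcnj3 with Oxybutynin. Rgs2, which limits G protein signalling, had the highest change of the list with Oxybutynin, 0.54 (SE 0.32, limma adjusted p = 0.493), and changed by -0.70 (SE 0.27, limma adjusted p = 0.334) with Dicyclomine. The changes of the remaining receptors over all durations ran from -0.24 (Chrm5) to 0.03 (Chrm1) with Oxybutynin and from -0.08 (Chrm4) to 0.15 (Chrm5) with Dicyclomine. The lists for acetylcholine synthesis and breakdown (8 genes), adrenergic signalling (21) and ion channels of heart rhythm (18) also held 0 called genes for either compound. These counts lie near the shares of 0.0352% and 0.162% over all genes tested.

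**Figure D1:**
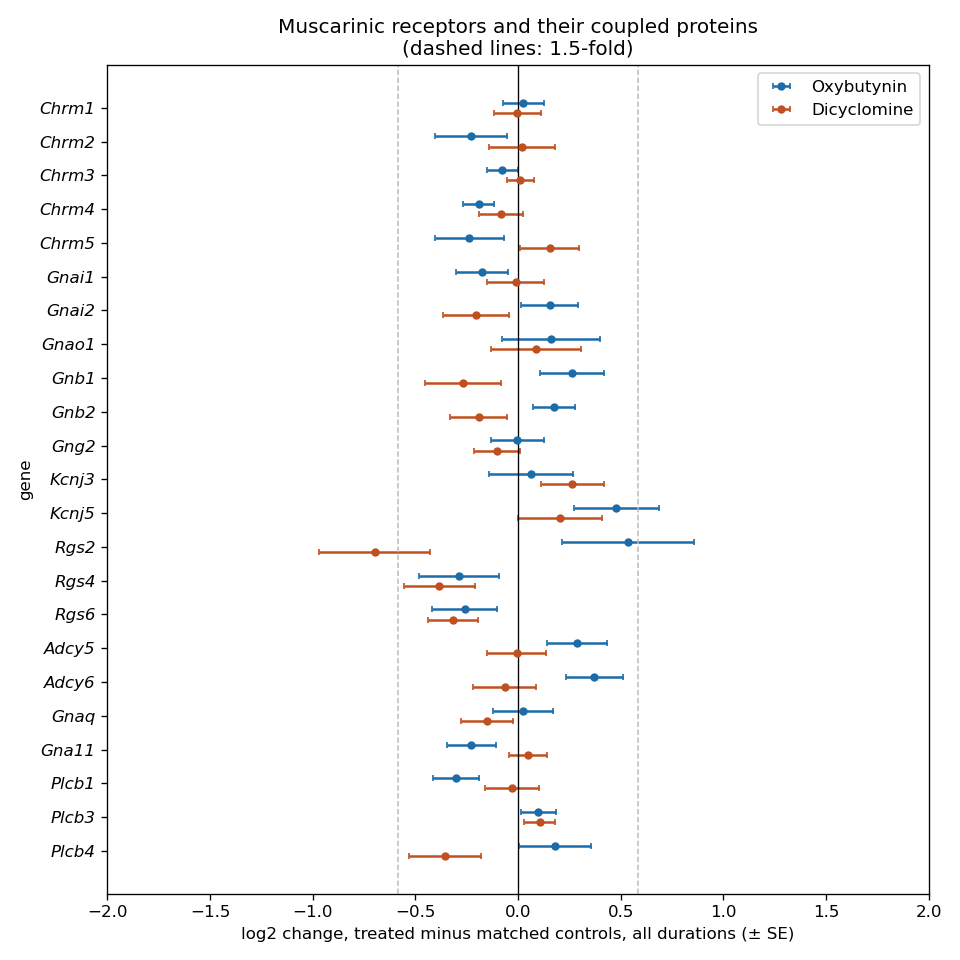
Change of each of the 23 measured muscarinic receptor and coupling genes over all durations, as log2 treated minus matched controls on the x axis with the standard error as bars, Oxybutynin in blue and Dicyclomine in orange; the dashed lines mark 1.5-fold. Most points sit near 0, and 0 of the 23 genes were called.

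The genes called with Oxybutynin were mostly clock genes. Of 16 measured clock genes, 4 were higher over both durations: Nr1d2 and Nr1d1, which encode the REV-ERB repressors, Dbp, a clock-controlled transcription factor, and Per3, of the Period family. Nr1d2 rose 2.84-fold (log2 1.51, SE 0.19, limma adjusted p = 0.000745), Nr1d1 2.55-fold (1.35, SE 0.22, 0.00891), Dbp 2.34-fold (1.23, SE 0.16, 0.000831) and Per3 1.91-fold (0.94, SE 0.15, 0.00891). The median log2 change of the 16 genes was 0.22, against 0.05 over all genes tested. Bmal1, which the REV-ERB proteins repress, changed by -0.31 (limma adjusted p = 0.509).

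In single rats, Nr1d2 was 9.04, 9.19 and 10.00 with Oxybutynin at 3 d and 9.64, 9.84 and 9.67 at 5 d. Controls ran from 7.85 to 8.55 at 3 d (median 8.25) and from 6.82 to 8.79 at 5 d (median 8.05). Every Oxybutynin rat lay above every control of its duration for Nr1d2. Dbp was 7.28, 7.26 and 8.53 at 3 d and 8.10, 8.22 and 8.02 at 5 d, against 6.48 to 7.16 (median 6.77) and 5.91 to 6.96 (median 6.70) in controls. Nr1d1 was 8.21, 8.47 and 9.18 at 3 d and 8.55, 8.83 and 8.91 at 5 d, against at most 8.10 and 7.83 in controls. Dbp and Nr1d1 likewise did not overlap between Oxybutynin and control rats. Per3 was 6.02, 6.76 and 7.54 at 3 d and 6.99, 7.11 and 6.83 at 5 d, and 1 Oxybutynin rat at 3 d lay inside the control range of 5.76 to 6.29. At 5 d alone, Nr1d2 was called at 3.43-fold and Dbp at 2.86-fold (limma adjusted p = 0.00392 for each).

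The calls differed in how far they held when 1 rat was left out. Nr1d2 and Dbp over both durations were called in all 23 such fits, while Nr1d1 was lost in 16, Per3 in 19 and Hspa1a in 13, with limma adjusted p up to 0.062 for Nr1d1 and Per3 and 0.0499 for Hspa1a. At 5 d, 0 genes were called without any 1 of the 3 Oxybutynin rats at 5 d or without control rat 4 at 5 d. With the hybridisation date as a fixed block 0 genes were called over all durations for either compound. On the 2 hybridisation dates that held Oxybutynin and control rats of 3 d, with 1 treated and 2 control rats each, Nr1d2 was higher by 1.09 and 1.73. The other probe sets of Nr1d2 changed by 1.43 and 0.85 with Oxybutynin, and the other probe set of Per3 by 0.02, so the rise of Per3 rests on 1 of its probe sets.

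With Dicyclomine 1 of the 16 clock genes was called higher and 1 lower over all durations, with 10 positive changes, and Nr1d2, Nr1d1, Dbp and Per3 lay above the shared controls at 3 d and 5 d. Per3 rose 2.73-fold over all durations (log2 1.45, SE 0.27, limma adjusted p = 0.00872), and Nfil3, a repressor that opposes Dbp at shared target sites, fell 1.87-fold (log2 -0.90, SE 0.18, limma adjusted p = 0.00987). Nr1d2 (1.35), Nr1d1 (1.41) and Dbp (1.46) had log2 changes of similar size that were not called, with limma adjusted p of 0.0283, 0.0323 and 0.0362. Without the low-correlation arrays Nr1d2 was called at 2.78-fold (limma adjusted p = 0.0089) and Nfil3 was not (0.0192). Leaving out 1 rat lost Nfil3 in 28 of 33 fits (limma adjusted p up to 0.0494) and Per3 in 20 (up to 0.0383), and Per3's other probe set changed by 0.13.

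Per3 was 7.77, 7.37 and 7.84 in the Dicyclomine rats at 1 d, 7.10 (low-correlation array) and 7.91 at 3 d, and 7.99 and 8.07 at 5 d. Its controls ran from 5.43 to 8.37 at 1 d (median 6.05), 5.76 to 6.29 at 3 d (median 5.92) and 5.50 to 6.39 at 5 d (median 5.79). The groups overlapped at 1 d and not at 3 d or 5 d. Nr1d2 was 9.86, 9.72 and 10.06 at 1 d, inside a control span of 7.59 to 10.49, then 8.56 (low-correlation array) and 10.14 at 3 d and 9.99 and 10.24 at 5 d. Within the 3 hybridisation dates at 1 d, each with 1 treated and 1 control rat, the log2 difference was 1.34, -0.28 and 1.72 for Nr1d2 and 1.75, -0.42 and 1.79 for Per3. The control rats of the same study as Dicyclomine had Nr1d2 at 8.34 (3 d) and 7.85, 7.58 and 8.05 (5 d), below both Dicyclomine rats of their duration.

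Bmal1 was not called with Dicyclomine (log2 -0.99, limma adjusted p = 0.192). Its level was 7.98, 8.18 and 7.32 at 1 d, 6.29 (low-correlation array) and 7.22 at 3 d and 6.40 and 6.63 at 5 d, against control medians of 8.40, 8.50 and 8.26. At 3 d and 5 d the Dicyclomine rats lay below every control of their duration, of which the lowest were 7.81 and 6.97. How many of all genes separate in this way was not counted. The hour at which each heart was taken was not analysed here, and its part in the clock gene values was not tested.

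**Figure D2:**
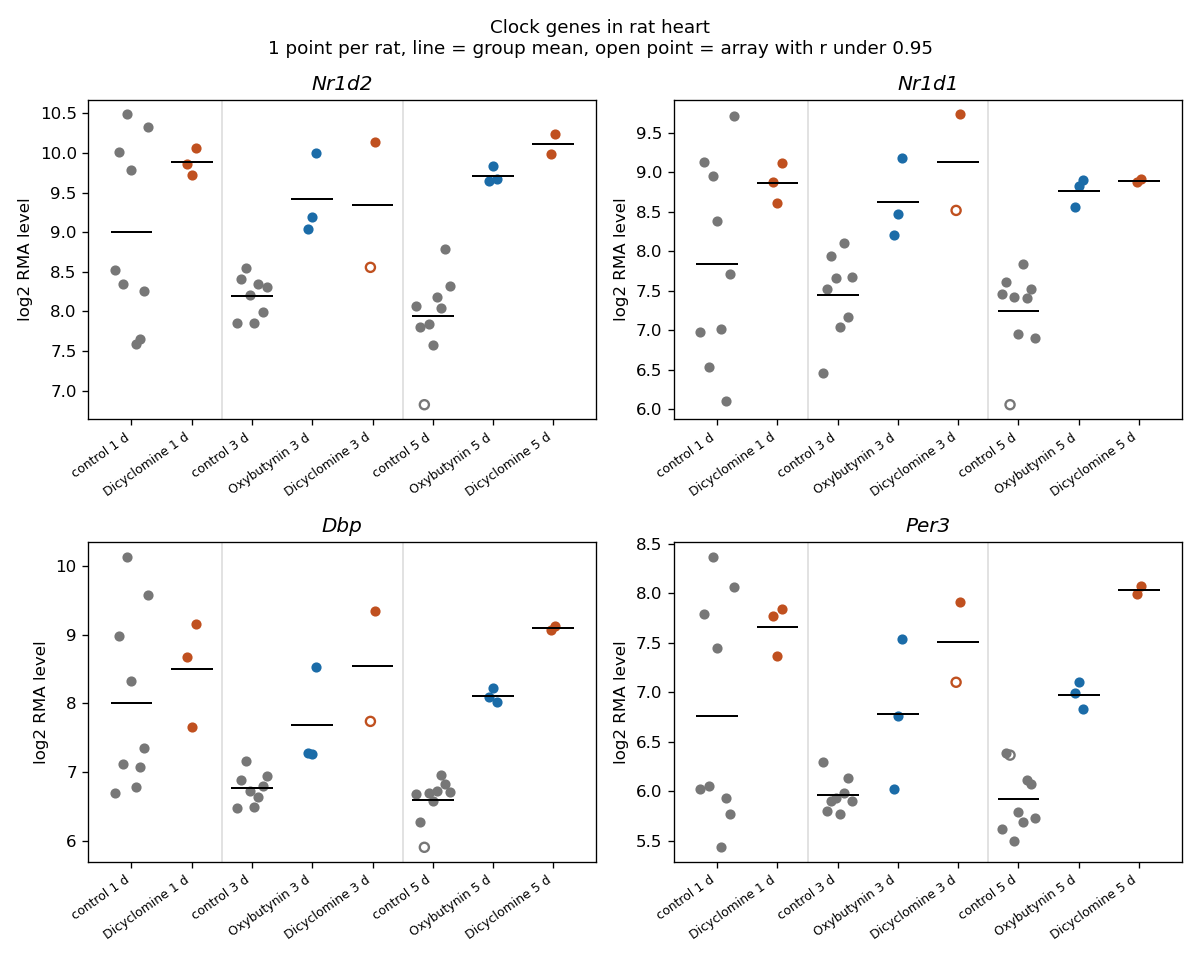
Log2 RMA level of Nr1d2, Nr1d1, Dbp and Per3 (y axes) in each rat by group (x axis), grey for controls, blue for Oxybutynin and orange for Dicyclomine; each point is 1 rat, each line a group mean and open points are the low-correlation arrays. Controls at 1 d spread widely and overlap the Dicyclomine rats, while at 3 d and 5 d treated rats lie above all controls, apart from 1 Oxybutynin rat at 3 d for Per3 (6.02).

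Of the 18 genes called lower with Dicyclomine over all durations, 8 were members of the cell cycle list. Of its 30 measured cell cycle genes, 8 were called lower and 0 higher over all durations, 28 had a negative change, and the median log2 change was -0.42 against -0.03 over all genes tested. The 8 were Cdk1, the kinase that drives entry into mitosis, Ccnb2, a cyclin that partners it, Mki67, a proliferation marker, Top2a, the topoisomerase that untangles sister chromosomes, Prc1 and Kif20a, which act on the central spindle, Nusap1, a spindle microtubule protein, and Ube2c, a ubiquitin-conjugating enzyme of the anaphase-promoting complex. Without the low-correlation arrays 7 were called lower, Mki67 missing the threshold (limma adjusted p = 0.0112), 30 were negative and the median was -0.36. The count of 8 fell to 0 with controls of the own study alone. It was also 0 with the hybridisation date or the extraction date as a fixed block. With a random block it was 3 for study and 4 for hybridisation date, and with the unmoderated test 3. The list lay low on the array, with mean levels of 5.55 to 6.65 in control rats against a median of 7.02 over all genes. Only 6 of the 30 genes were among the brightest 60% of genes, and 2 of these were called lower (median log2 change -0.24). With own-study controls, at 3 d and 5 d alone, 24 of the 30 changes were negative with a median of -0.14, and Cdk1 changed by -0.94, Mki67 by -0.67, Ccnb2 by -0.48 and Top2a by -0.43.

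The level of Cdk1 was 5.75, 5.56 and 6.26 at 1 d, 5.31 (low-correlation array) and 5.37 at 3 d and 4.76 and 5.17 at 5 d. Controls ran from 6.20 to 7.91 at 1 d (median 7.58), 6.29 to 7.91 at 3 d (median 7.00) and 5.46 to 7.33 at 5 d (median 6.26). At 3 d and 5 d every Dicyclomine rat lay below every control, and at 1 d 1 of 3 reached the lowest control. Cdk1 fell 2.84-fold over all durations (log2 -1.50, SE 0.21, limma adjusted p = 0.000334) and was called in all 33 fits that left out 1 rat (limma adjusted p at most 0.00252). The control rats of the same study had Cdk1 at 6.59 (3 d) and 5.49, 5.46 and 6.26 (5 d), each above the Dicyclomine rats of their duration. Within the 3 hybridisation dates at 1 d and the 1 at 5 d that held a treated and a control rat, Cdk1 was lower on each, by -1.21, -1.85, -1.33 and -0.70 on the log2 scale.

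Prc1 was 6.31, 6.01 and 6.68 at 1 d, 6.58 (low-correlation array) and 6.16 at 3 d and 5.55 and 5.88 at 5 d. Its lowest controls were 6.40, 6.65 and 6.30. Prc1 fell 2.47-fold (log2 -1.30, SE 0.23, limma adjusted p = 0.00483), and 1 Dicyclomine rat, at 1 d, lay inside the control range. Mki67 fell 2.60-fold (log2 -1.38, SE 0.27, limma adjusted p = 0.00987), Ccnb2 2.30-fold (-1.20), Top2a 2.08-fold (-1.06), Ube2c 1.85-fold (-0.89), Nusap1 1.72-fold (-0.78) and Kif20a 1.71-fold (-0.77). Called genes outside the list that are also known from dividing cells, chosen after their values were seen, were Cks2 (2.67-fold), which binds Cdk1, Cdkn3 (2.55-fold), Racgap1 (2.29-fold), which acts in cytokinesis, Pclaf (1.85-fold), which binds PCNA, and Pimreg (1.78-fold). Leaving out 1 rat lost Kif20a in 27 of 33 fits, Mki67 in 26, Top2a in 25 and Ccnb2 in 23. The other probe set of Top2a changed by -0.36 and that of Nusap1 by -0.48.

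The stretch before the start of 3 of these genes is shown because many genes that peak in mitosis carry a CCAAT box, bound by NF-Y, and the element TTTGAA (the cell cycle homology region). The RefSeq promoters (build GRCr8) are printed 5′ to 3′ on the gene's strand for the 150 bases upstream of the start, with each CCAAT or TTTGAA on either strand (ATTGG and TTCAAA where reversed) in capitals. Cdk1 lies at chr20:19265143-19265292 (+), Prc1 at chr1:143659331-143659480 (+) and Top2a at chr10:84473094-84473243 (-).
Cdk1: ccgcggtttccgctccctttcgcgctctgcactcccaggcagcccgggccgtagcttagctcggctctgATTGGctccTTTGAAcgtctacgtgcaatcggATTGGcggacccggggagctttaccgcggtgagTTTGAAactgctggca
Prc1: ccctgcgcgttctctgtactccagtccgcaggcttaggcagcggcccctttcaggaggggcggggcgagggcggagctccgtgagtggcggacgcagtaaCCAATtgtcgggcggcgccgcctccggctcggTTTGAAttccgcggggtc
Top2a: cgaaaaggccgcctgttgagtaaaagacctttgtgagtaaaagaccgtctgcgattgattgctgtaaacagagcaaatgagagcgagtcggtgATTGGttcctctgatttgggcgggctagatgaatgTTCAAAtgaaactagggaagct
Of the 7 called members of the list with a promoter entry, 7 held CCAAT and 5 held TTTGAA (71.4%). Among the 25 members of the whole list with an entry, 18 held CCAAT (72.0%) and 7 held TTTGAA (28.0%). Over all 27457 genes with a promoter, 25.3% held CCAAT and 9.96% held TTTGAA. The clock motif CACGTG, found in 4.21% of all promoters, and the Dbp and Nfil3 motif TTANGTAA, found in 1.25%, were in 0 of the 4 clock genes called with Oxybutynin in the same window. The matches describe the letters alone.

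With Oxybutynin, 0 of the same 30 cell cycle genes were called, and 28 had a negative change, with a median of -0.37 against 0.05 over all genes tested. At an adjusted p of 0.05 with no fold minimum, Ube2c (log2 -0.85, limma adjusted p = 0.0216) and Nusap1 (-0.81, 0.0281) were lower. Cdk1 changed by -1.09 (SE 0.25, limma adjusted p = 0.104) and Top2a by -1.01 (SE 0.22, 0.0733). Among Oxybutynin rats Cdk1 was 6.89, 6.11 and 5.29 at 3 d and 4.98, 5.06 and 5.02 at 5 d. The 3 rats at 5 d lay below every control (lowest 5.46), while at 3 d 1 of 3 lay inside the control range. Cdk1 was not called with Oxybutynin, and its single values are description. Hemgn (-0.69, limma adjusted p = 0.0142), a gene of red cell precursors, Pbk (-0.53, 0.0185), a mitotic kinase, and Urah (-0.45, 0.0341) were the other genes of smallest p on the lower side, and 0 were called. Without the low-correlation control Hemgn was called, 1.63-fold lower (limma adjusted p = 0.00791).

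**Figure D3:**
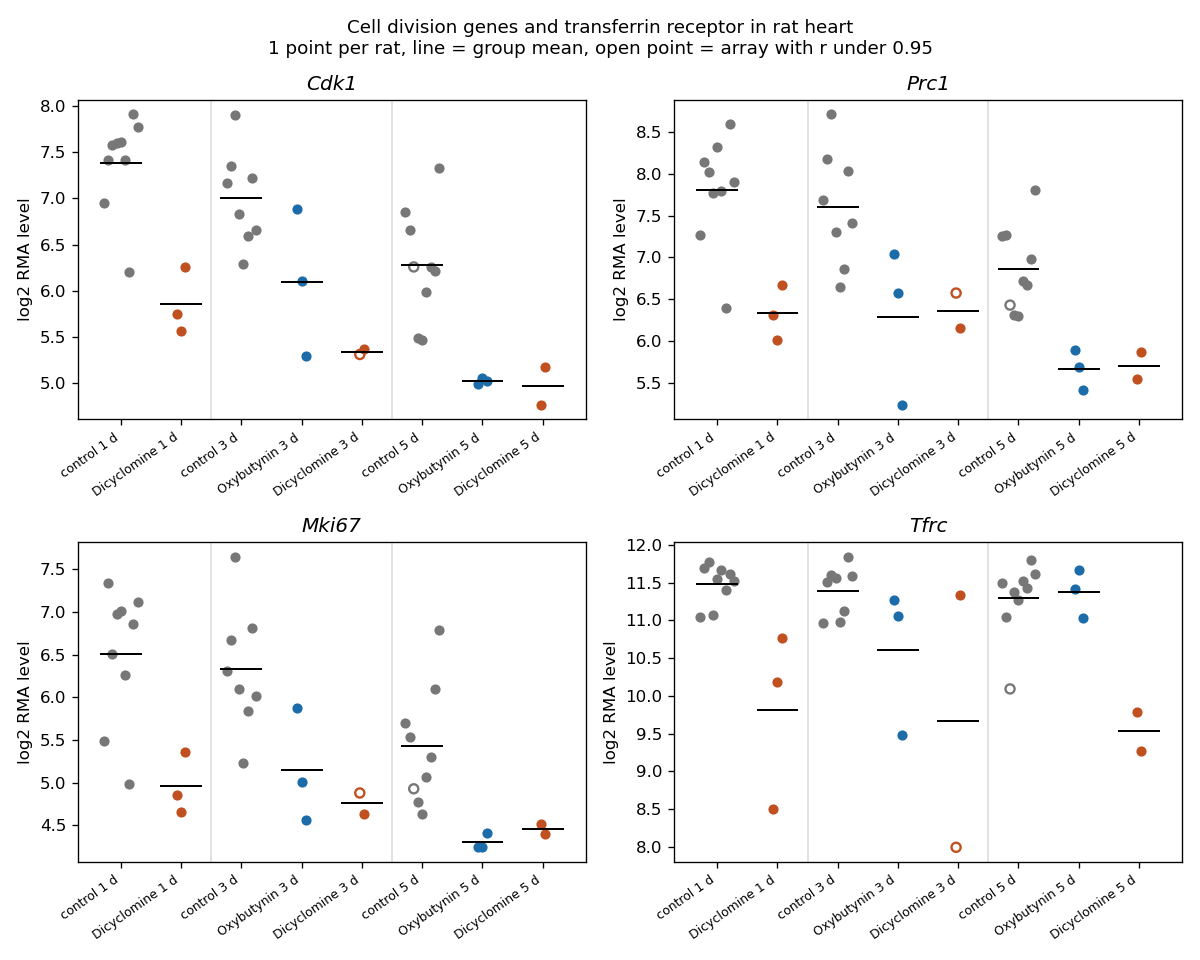
Log2 RMA level of Cdk1, Prc1, Mki67 and Tfrc (y axes) in each rat by group (x axis), with colours, lines and open points as for the clock genes. Dicyclomine rats lie low for Cdk1 at each duration (4.76 to 6.26), Oxybutynin rats lie low at 5 d (4.98 to 5.06), and Tfrc is below all controls in the Dicyclomine rats at 1 d and 5 d, while 1 of 2 at 3 d (11.33) lies among them.

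**Figure D4:**
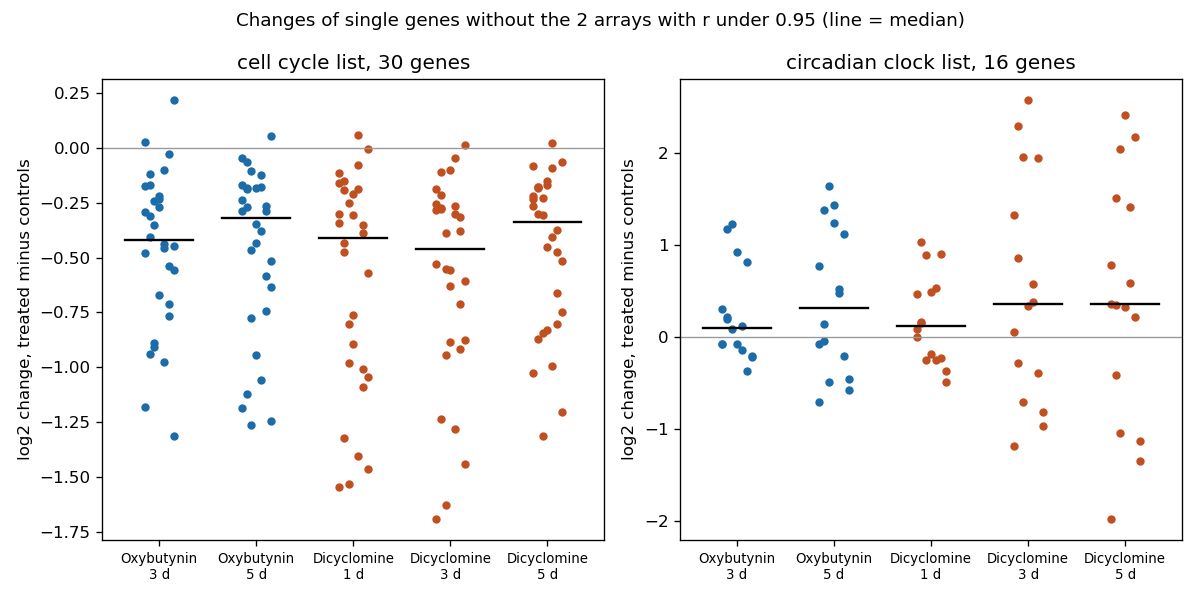
Log2 change, treated minus controls, of each measured gene of the cell cycle list (left, 30 genes) and the circadian clock list (right, 16 genes) for each compound and duration without the 2 low-correlation arrays; each point is 1 gene and each line the list's median. Cell cycle genes lie mostly below 0 in all 5 groups, and clock genes spread to both sides, most widely with Dicyclomine at 3 d and 5 d. Here Dicyclomine has 1 rat at 3 d and 2 rats at 5 d, and few rats by themselves widen the spread.

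Tfrc, the transferrin receptor that takes iron into cells, had the largest fall among the genes called with Dicyclomine over all durations. Its level was 8.51, 10.18 and 10.76 at 1 d, 8.00 (low-correlation array) and 11.33 at 3 d and 9.79 and 9.27 at 5 d. Controls ran from 11.05 to 11.77 at 1 d, 10.97 to 11.84 at 3 d and 10.09 to 11.80 at 5 d. At 1 d and 5 d every Dicyclomine rat lay below every control, and at 3 d the rat with the higher correlation lay inside the control range. Tfrc fell 3.28-fold (log2 -1.71, SE 0.26, limma adjusted p = 0.0011; 2.73-fold without the low-correlation arrays) and was called in all 33 fits that left out 1 rat. The other probe set of Tfrc changed by -1.90 with Dicyclomine. With Oxybutynin Tfrc changed by -0.35 (limma adjusted p = 0.506).

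Alas2, the first enzyme of heme synthesis in red cell precursors, fell 6.48-fold with Dicyclomine at 5 d (log2 -2.70, SE 0.49, limma adjusted p = 0.0069). Its level was 6.18 and 6.86 in the 2 rats, against 7.74 to 9.99 in controls (median 9.29, lowest the low-correlation array). The call was lost in 13 of 33 fits that left out 1 rat (limma adjusted p up to 0.143). With Oxybutynin at 5 d Alas2 was 7.34, 8.05 and 8.60 (log2 -1.22, limma adjusted p = 0.648). The red blood cell list (6 genes) had a median change of -1.13 with Dicyclomine at 5 d, with 6 of 6 negative and 1 called (Alas2), against -0.01 over all genes tested. Once the low-correlation arrays were left out, Alas2 fell 7.37-fold (limma adjusted p = 5.97e-05) and Hbb, the beta globin, was also called, 2.90-fold lower (9.88e-05). The list's mean level was 6.65 to 6.71 in those rats and 7.34 to 8.03 in the 5 d controls, and with Oxybutynin at 5 d it was 7.08 to 7.32. The part that blood left in the heart had in these values was not tested.

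A further 7 genes were called higher and 1 lower with Dicyclomine at 5 d. Spp1, which encodes the secreted matrix protein osteopontin, rose 6.89-fold (log2 2.78, SE 0.50, limma adjusted p = 0.0069), Serpina3n, a secreted inhibitor of serine proteases, 4.24-fold (2.09, SE 0.25, 1.69e-05), Ncam1, a cell adhesion protein, 3.91-fold (1.97, SE 0.29, 0.000507), Gpnmb, a membrane protein of macrophages, 3.15-fold (1.65, SE 0.19, 1.43e-05) and Ephx1, the microsomal epoxide hydrolase, 2.97-fold (1.57, SE 0.25, 0.00107). Cbx7, a Polycomb protein, rose 2.25-fold and H1f4, a linker histone, 1.74-fold, and Ppm1j, a protein phosphatase, fell 2.26-fold.

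The 2 Dicyclomine rats at 5 d had Spp1 at 8.19 and 9.91, against 5.52 to 6.91 in controls (median 6.28). Serpina3n was 6.00 and 6.80, against 4.01 to 4.76 (median 4.27). Ncam1 was 9.28 and 9.04, Gpnmb 8.36 and 9.02 and Ephx1 8.23 and 8.32, against at most 7.64, 7.32 and 6.92 in controls. Both rats lay above every control for all 5 genes. These were named as the called genes of largest rise at 5 d, so the separation adds no support to the calls. Spp1 reached 8.58 in 1 control rat at 3 d, and at 1 d the Dicyclomine rats had 7.26, 6.39 and 6.55.

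The macrophage list (10 genes) was positive in 10 of 10 genes with Dicyclomine at 5 d, with a median log2 change of 0.88 against -0.01 over all genes tested and 0 called. Its mean level was 8.12 to 8.29 in the 2 rats and 6.85 to 7.74 in the 5 d controls, and C1qc, a complement component, was higher by 1.10 (limma adjusted p = 0.0439). In the fit without the low-correlation arrays the median was 0.81 and 1 member was called, C1qa, also a complement component, at 1.96-fold (limma adjusted p = 0.00672). The atrial muscle list stood at 9.85 and 13.72 in the same rats, against 7.36 to 9.47 in the 5 d controls. Its part, and that of the macrophage markers, in the 5 d values was not tested. The count at 5 d was 38 without Dicyclomine rat 1, 1 without rat 2, 26 without control rat 1 of 3 d and 36 (15 higher and 21 lower) without the low-correlation arrays.

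Serpina3n was the 1 gene whose change differed between durations of Dicyclomine (limma adjusted p = 0.00294), at -0.20 at 1 d, 0.09 at 3 d and 2.09 at 5 d. Between 1 d and the later durations, duration and extraction campaign cannot be told apart. At an unadjusted limma p under 0.05, 2105 genes passed this test, and 764 without the low-correlation arrays. For Oxybutynin 0 genes differed between 3 d and 5 d, and 171 passed at an unadjusted limma p under 0.05. The 5 genes of smallest p there were Sdc4, Esm1, Gzma, Stk38l and Sik1.

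Myh7, the slow myosin heavy chain that rises in the strained adult rat heart, met the adjusted p of 0.05 with both compounds and was called with neither. It was 11.69, 12.64 and 13.85 with Oxybutynin at 3 d and 12.97, 13.42 and 13.79 at 5 d. With Dicyclomine it was 12.59, 10.30 and 11.15 at 1 d, 11.12 (low-correlation array) and 13.09 at 3 d and 14.22 and 14.02 at 5 d. Controls ran from 10.15 to 11.43 at 1 d, 9.25 to 12.04 at 3 d and 8.72 to 12.30 at 5 d. At 5 d all treated rats lay above all controls, whereas at 1 d and 3 d the groups overlapped. How many of all genes separate in this way at 5 d was not counted. The log2 change was 2.20 with Oxybutynin (SE 0.43, limma adjusted p = 0.0341) and 1.64 with Dicyclomine (SE 0.39, limma adjusted p = 0.0418). Without the low-correlation arrays it was 2.05 (0.0123) and 1.74, which for Dicyclomine was called (limma adjusted p = 0.00805). The list of hypertrophy and stretch genes (16) held Myh7 as its 1 member at an adjusted p of 0.05 with each compound, and without the low-correlation arrays it held 2 such members with each.

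**Figure D5:**
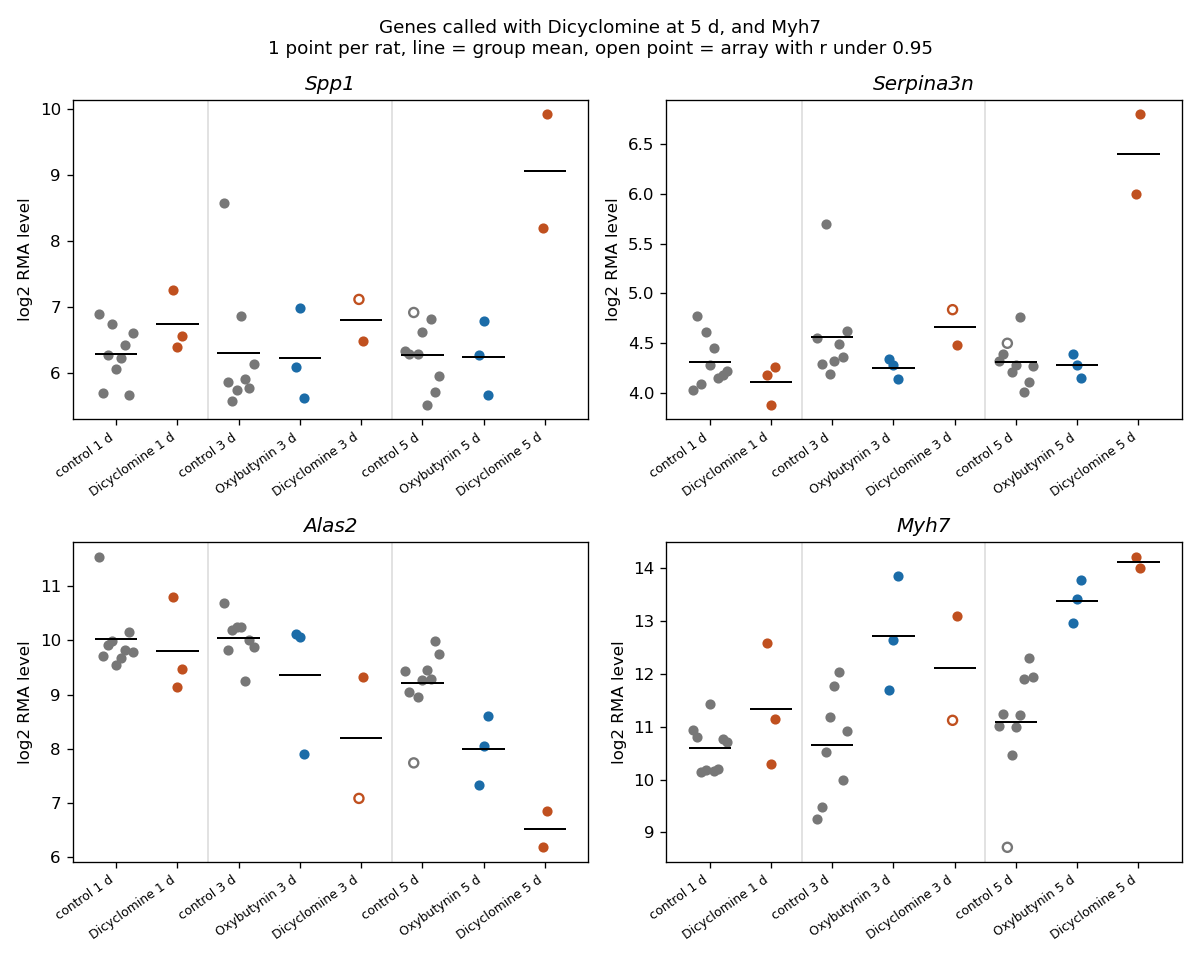
Log2 RMA level of Spp1, Serpina3n, Alas2 and Myh7 (y axes) in each rat by group (x axis), with colours, lines and open points as for the clock genes. The 2 Dicyclomine rats at 5 d lie above all 5 d controls for Spp1, Serpina3n and Myh7 and below them for Alas2.

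Over all durations 4 genes other than Per3 were called higher with Dicyclomine. Tmem108, a membrane protein known from neurons, rose 1.97-fold (log2 0.97, SE 0.16, limma adjusted p = 0.00249), Ptgds, a prostaglandin D synthase, 1.99-fold, Myot, the sarcomere protein myotilin, 1.86-fold and Cep128, a centriole protein, 1.65-fold. Tmem108 was 8.55, 7.65 and 7.46 at 1 d, 8.27 (low-correlation array) and 7.24 at 3 d and 8.33 and 7.77 at 5 d, against control medians of 6.84, 6.78 and 6.88. At 1 d all 3 rats lay above the highest control (7.20), and at 3 d and 5 d 1 rat each lay inside the control range. Leaving out 1 rat lost Tmem108 in 2 of 33 fits, Myot in 5, Ptgds in 24 and Cep128 in 26. On the lower side, Smoc2, a matrix protein, fell 2.06-fold, Ppm1j 1.60-fold and Col5a3, a collagen chain, 1.52-fold. The collagens and matrix list (21 genes) held 0 called genes and 18 negative changes, with a median of -0.44. With the low-correlation arrays left out 14 were negative, with a median of -0.17.

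Hspa1a, an inducible heat shock protein of the Hsp70 family, was the gene called with Oxybutynin outside the clock list over both durations. It was 8.87, 9.98 and 9.26 at 3 d and 9.28, 9.75 and 9.09 at 5 d, against 7.98 to 8.87 (median 8.30) and 8.13 to 8.69 (median 8.54) in controls. At 5 d the groups did not overlap, and at 3 d the lowest Oxybutynin rat stood at the highest control. Hspa1a rose 1.91-fold (log2 0.93, SE 0.15, limma adjusted p = 0.00741), and on the 2 shared hybridisation dates it was higher by 1.86 and 0.93. The heat shock list (13 genes) had 13 positive changes with Oxybutynin, with a median of 0.20 against 0.05 over all genes tested and 1 called. Without the low-correlation control 12 were positive, with a median of 0.12 against 0.03. The rise was not particular to this list. With Oxybutynin all 26 proteasome genes (median 0.20) and all 22 lysosome genes (0.17) also had positive changes. Without the low-correlation control 24 of the proteasome genes (median 0.13) and 20 of the lysosome genes (0.11) were positive. The lymphocyte (9), neutrophil (6) and red blood cell (6) lists had negative changes alone. With Dicyclomine Hspa1a changed by -0.05 (limma adjusted p = 0.898). The heat shock list had 12 negative changes with a median of -0.29, or 7 and -0.07 without the low-correlation arrays.

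At 5 d, Sdc4, a heparan sulfate proteoglycan of focal adhesions, was 2.17-fold higher with Oxybutynin (log2 1.12, SE 0.17, limma adjusted p = 0.00392). It was 9.79, 9.60 and 10.05 in the Oxybutynin rats at 5 d, against 8.20 to 9.06 in controls (median 8.77). The groups did not overlap at 5 d. At 3 d the rats had 8.68, 9.11 and 8.74, inside the control range of 8.65 to 9.42. The immediate early list (17 genes, such as Fos) had 16 positive changes with Oxybutynin at 5 d, a median of 1.42 and 0 called. Its mean level was 8.94 to 9.68 in the Oxybutynin rats at 5 d and 6.54 to 9.28 in the 5 d controls. At 3 d the list went the other way with Oxybutynin, with 14 of the 17 changes negative and a median of -0.31. Its mean level at 3 d was 6.77 to 7.7 in the Oxybutynin rats, inside the control range of 6.71 to 9.06. With Dicyclomine over all durations 15 of the 17 changes were negative, with a median of -0.66. Fos alone spanned 4.20 to 12.06 in the 5 d controls. Ddc, which makes dopamine, was called with Oxybutynin without the low-correlation arrays, at 2.06-fold (limma adjusted p = 0.0065), and with them it was not (limma adjusted p = 0.0712).

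The remaining lists, which cover pathways of stress, metabolism and drug response and markers of other cell types, held 0 called genes over all durations with either compound. Over all genes tested 0.0352% were called with Oxybutynin and 0.162% with Dicyclomine. Without the low-correlation arrays, Dicyclomine over all durations gave 1 call each in the lysosome list (Gpnmb, 1.82-fold), the NRF2 target list (Ephx1, 1.74-fold) and the FoxO target list (Pik3ip1, 1.55-fold), with limma adjusted p of 0.00204, 0.00713 and 0.00482. At Dicyclomine 5 d the lysosome list (22 genes) held Gpnmb and the NRF2 target list (19) held Ephx1 as called members. Genes named above were also tested over all durations in 71 other compound profiles that shared no control rat with these. With all arrays, Spp1, Serpina3n, Gpnmb, Ephx1, Sdc4 and Alas2 were called here at 5 d alone, so for them the tests differ. Nr1d2 was called higher in 17 of the 71, Per3 in 17, Dbp in 16, Nr1d1 in 8, Ephx1 in 20, Gpnmb in 13, Sdc4 in 7, Hspa1a in 5, Spp1 in 4 and Serpina3n in 4. Lower calls were made for Cdk1 in 14 of the 71, Prc1 in 13, Tfrc in 11 and Alas2 in 19. Cbx7 and H1f4 were called in 0 of the 71. The rate of calls for all genes across these profiles was not counted. Across all 95 profiles, among them those in water by gavage that share control rats, the number of called genes ranged from 0 to 892 (median 22). Of these, 33 had fewer calls than Oxybutynin and 49 fewer than Dicyclomine. Profiles differed in size, from 2 treated and 1 control rat (Isoprenaline at 4.2 mg/kg) to 9 and 28 (Losartan). The number of calls depends on that size, so the ranks do not compare the sizes of responses.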

How the data were processed

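Total heart RNA was measured on Affymetrix RG230_2.0 arrays, 1 per rat. The deposited values are log2 levels that the authors made by RMA, per the submitters' processing notes, with the version not given in the sources used here; RMA shrinks large differences and draws arrays to 1 distribution. No depth applies to arrays, and the number of rats limits precision. GEO annotation named 1 gene for 20832 of the 31099 probe sets, several for 436 and none for 9831. This gave 14217 genes, each tested by its brightest uniquely named probe set. Replicates were separate rats; of a rat with 2 arrays, the array of the earlier campaign was used. Columns left out numbered 0. Treated rats were compared with matched controls in limma 3.58.1 (R 4.3.3, with the package data.table at version 1.17.8) with duration as a term, and Benjamini-Hochberg adjustment over all genes. Called genes needed an adjusted p of 0.01 or less and 1.5-fold. Named were up to 10 called genes per direction with 1 sign at each duration, up to 5 per single duration, the 5 of smallest p otherwise, list members, and further called genes chosen after their values were seen. The members and lists were chosen with earlier results of these data known. The fits were first tested on simulated data. Promoters came from RefSeq; figures used matplotlib 3.10.9 (Python 3.11.15). Alternatives varied the controls, normalization, filter, blocks and test.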

Additional observations from a re-analysis of the deposited data

Results flagged for a closer look

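In the control groups of 8 or 9 rats, 21 of 117 gene or quality values held a rat far from the others (17.9%, where chance flags about 1 in 20). In the 5 d controls, 7 of these were the low-correlation array, with a correlation of 0.9235, Alas2 at 7.74, Cbx7 at 5.99, Ephx1 at 6.25, Smoc2 at 6.52, Tfrc at 10.09 and Tmem108 at 8.01. Another 5 d control stood high for Ccnb2 at 7.31. In the 3 d controls, rat 1 stood apart with a correlation of 0.9683, Ephx1 at 7.39, Gpnmb at 7.77 and Spp1 at 8.58, and single rats did so for Myot at 5.81, Serpina3n at 5.69 and Urah at 5.17. In the 1 d controls, single rats stood apart for Alas2 at 11.54, H1f4 at 6.98, Hemgn at 7.25, Ncam1 at 8.44, Ube2c at 6.12 and Urah at 5.88. The change of Serpina3n with Dicyclomine differed between durations (limma adjusted p = 0.00294). The causes were not tested.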

How the results depend on the processing

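No called gene changed direction under the alternatives run. Oxybutynin over both durations gave 5 calls, and 14 with controls of every extraction campaign. Where a rat had 2 arrays, using its array from the treated rats' campaign gave 2. Oxybutynin also gave 2 with the unmoderated per-gene test, 2 after new quantile normalization, 0 and 3 with hybridisation date as a fixed and a random block, 10 with extraction date as a fixed block, 0 with study as a random block, 12 at an adjusted p of 0.05, and 2 (both lower) with both compounds in 1 fit. Its 3 calls at 5 d became 0 with every campaign's controls, the unmoderated test, the fixed hybridisation block, the study block and the joint fit. Dicyclomine over all durations gave 23 calls, and in the same order 104 with every campaign, 5 with the unmoderated test, 60 (20 higher, 40 lower, against 5 and 18) after new quantile normalization, 0 and 11 with the hybridisation blocks, 1 with the extraction block, 5 with the study block and 81 at 0.05, besides 0 with own-study controls alone and 7 with the brightest 60% of genes. Every campaign's controls gave 2 calls at 1 d, 2814 at 3 d and 22 at 5 d, against 0, 0 and 9, and the fixed hybridisation block 1 at 3 d and 0 at 5 d. At 5 d there were 62 after quantile normalization, 36 without the low-correlation arrays, 18 at 0.05 and 0 with own-study controls. The difference between durations of Dicyclomine had 1 call, and 0 with own-study controls, the unmoderated test or the brightest 60%, 2 after quantile normalization, without the low-correlation arrays or with the random hybridisation block, and 3 at 0.05. It could not be fitted with fixed date blocks, and Oxybutynin had no own-study controls. The causes were not tested. Leaving out 1 rat gave 2 to 7 calls for Oxybutynin over both durations, 0 to 0 at 3 d, 0 to 4 at 5 d and 0 to 0 for the difference. For Dicyclomine it gave 4 (without rat 1 of 5 d) to 27 over all durations, 0 to 2 at 1 d, 0 to 6478 at 3 d, 1 to 38 at 5 d and 0 to 4096 for the difference, with 6478 and 4096 where the low-correlation array alone stood for 3 d. No paired analysis was possible because animals were numbered singly and replicate numbers in accession order pair no samples.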
